A study of Mus musculus with 2 samples.

Results

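MicroRNAs that are enriched in neurons were followed in the gastrocnemius, a calf muscle, through 10 miRNA genes that were chosen by name out of 2202 annotated miRNA genes. The 2 Mir128 genes, Mir128-1 and Mir128-2, are given apart, because miR-128 is also made in muscle fibres. The other 8 members were Mir137, Mir129-1, Mir129-2, Mir138-1, Mir138-2, Mir153, Mir7-1 and Mir7b. The study consists of 1 group of 2 microRNA libraries from B6CASTF1/J males aged 25 days, for which the labels give no treatment. These mice are F1 hybrids of a laboratory strain with CAST, which was derived from wild mice. The libraries are numbered as biological replicates and described as separate males, yet the labels list a single donor identifier for both. SDs and the edgeR test thus rest on a spread that may be technical, while exact binomial p-values cover counting error only. There is no second condition, and the comparisons below are of levels between genes and of the 2 libraries with each other. Whole muscle was used, in which fewer cells of a type and less RNA per cell cannot be told apart.

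MicroRNAs are cut from hairpin transcripts, and each hairpin can yield a mature strand from its 5′ arm (5p) and its 3′ arm (3p). The seed, bases 2 to 8 of the mature strand, is the main part that pairs with target mRNAs. Several neuron-enriched miRNAs act on synapses: miR-138 limits dendritic spine size in rat hippocampal neurons, and miR-137 acts in the maturation of neurons. MiR-7 is known from the pituitary, the hypothalamus and pancreatic islets, and miR-153 comes from a gene of the dense-core vesicle membrane. A muscle holds motor axon endings and Schwann cells next to its fibres, vessels and blood cells.

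The mature sequences decide which of these miRNAs could be counted. The deposited gene rows leave out every read with more than 1 genomic match, and such reads made up 69.8% of replicate 1 and 71.8% of replicate 2. The sequences below are the strands best known from each family and the Mir128 5p arms, with the seed in capitals (RefSeq, GRCm38.p6).
miR-128-3p: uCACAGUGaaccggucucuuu
miR-128-1-5p: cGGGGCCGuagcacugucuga
miR-128-2-5p: gGGGGCCGaugcacuguaagaga
miR-137-3p: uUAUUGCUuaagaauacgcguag
miR-138-5p: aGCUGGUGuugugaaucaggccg
miR-129-5p: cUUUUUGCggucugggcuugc
miR-153-3p: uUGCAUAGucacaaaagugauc
miR-7a-5p: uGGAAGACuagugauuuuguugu
miR-7b-5p: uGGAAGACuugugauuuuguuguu

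MiR-128-3p occurs unchanged at Mir128-1 and Mir128-2, miR-138-5p at Mir138-1 and Mir138-2, and miR-129-5p at Mir129-1 and Mir129-2. MiR-7a-5p comes from Mir7-1 and from Mir7-2, a gene that is not a member. MiR-7b-5p has the same seed and differs from miR-7a-5p by A10U, counted from the 5′ end of miR-7a-5p, and by its extra last base. Of the 10 members, 7 thus have a mature arm that is found at more than 1 annotated miRNA locus. The remaining members, Mir137, Mir153 and Mir7b, have arms that are found at 1 annotated locus each. The 2 Mir128 5p arms share a seed with each other and with no other mature miRNA among 1679 names in the RefSeq table, and the seeds of miR-128-3p, miR-137-3p, miR-138-5p, miR-129-5p and miR-153-3p occur in no other name there.

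The hairpins show where reads of related genes can be told apart, with the longest run common to each pair in capitals.
Mir128-1: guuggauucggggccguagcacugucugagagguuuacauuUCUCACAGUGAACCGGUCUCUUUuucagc
Mir128-2: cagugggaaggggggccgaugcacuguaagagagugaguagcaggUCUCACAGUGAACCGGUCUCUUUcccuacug
Mir138-1: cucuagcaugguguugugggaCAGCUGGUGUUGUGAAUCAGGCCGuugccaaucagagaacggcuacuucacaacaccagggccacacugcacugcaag
Mir138-2: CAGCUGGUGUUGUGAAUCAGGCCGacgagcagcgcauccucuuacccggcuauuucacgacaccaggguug

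The common run is 23 bases in the Mir128 pair and 24 bases in the Mir138 pair, and each holds the whole shared arm. A read that lies within it matches both genes exactly, whereas a read from the opposite arm, or one that runs past the capitals, matches 1 of them without mismatch. Of the 20-base windows in the hairpin, 47 of 51 in Mir128-1, 53 of 57 in Mir128-2, 75 of 80 in Mir138-1 and 47 of 52 in Mir138-2 occur in no other annotated miRNA gene at another place. For Mir137, Mir153 and Mir7b all windows do, 54, 50 and 92 of them. The deposited counts do not record which arm a read came from. The longest run that Mir129-1 shares with Mir129-2 is 26 bases, and the run that Mir7-1 shares with Mir7-2 is 24 bases.

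**Figure D1:**
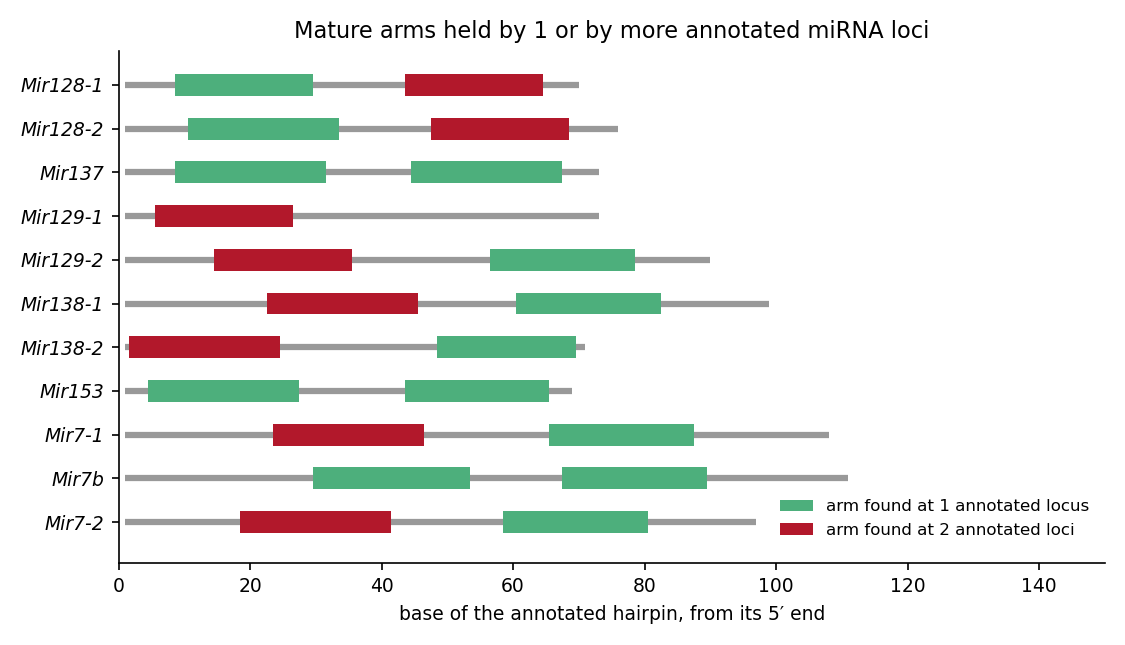
Map of the annotated hairpins of the 10 members and Mir7-2, with the base from the 5′ end on the x axis. Grey lines are hairpins, green bars mature arms found at 1 annotated locus and red bars arms found at 2. Mir137, Mir153 and Mir7b carry green bars only, and the other 7 members carry a red bar.

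The members lie on separate chromosomes or far apart (mm10). Mir128-1 (chromosome 1, 128202361 to 128202430, plus strand) lies in an intron of R3hdm1, and Mir128-2 (chromosome 9, 112118636 to 112118711, minus strand) in an intron of Arpp21, which encodes a cAMP-regulated phosphoprotein of the brain. Mir7-1 (chromosome 13, 58392779 to 58392886, minus strand) lies in an intron of Hnrnpk, which encodes a widely expressed RNA-binding protein. Mir153 (chromosome 12, 117250817 to 117250885, plus strand) lies in an intron of Ptprn2, which encodes the dense-core vesicle protein. Mir137 (chromosome 3, 118433857 to 118433929, plus strand) overlaps an exon of the noncoding gene Gm26871, and Mir138-2 (chromosome 8, 94324311 to 94324381, plus strand) an exon of the lincRNA C78859. Mir138-1 (chromosome 9, 122682876 to 122682974, plus strand) overlaps an exon of the pseudogene Gm47135, and Mir129-1 (chromosome 6, 29022619 to 29022691, plus strand) an exon of the lincRNA Gm3294. Mir129-2 (chromosome 2, 94241364 to 94241453, minus strand) lies in an intron of Mir670hg and overlaps Mir129b on the opposite strand. Mir7b (chromosome 17, 56242988 to 56243098, plus strand) lies in no other annotated gene.

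Replicate 1 held 1491341 gene counts and replicate 2 held 2028332, and levels are given as counts scaled to 1000000 gene counts (CPM). CPM were not divided by hairpin length, since the mature arms of the members are all 21 to 24 bases long. All 7 listed striated muscle miRNA genes, which mark the labelled tissue, had counts in both libraries, but at very unequal levels. Mir206 had 49955 ± 4826 CPM, Mir486 750 ± 103 and Mir1a-2 412 ± 42.8 CPM (SD, n = 2), whereas Mir1a-1, Mir133a-1 and Mir133b averaged 10.7, 16.6 and 16.1 CPM and Mir133a-2 had 1 and 8 counts. These levels cover only reads placed at 1 locus, and arms shared among the muscle genes were not searched. Intervals are exact 95% binomial intervals, which cover counting error only. A count of 0 leaves room for up to 3 counts, which correspond to 2.01 and 1.48 CPM in replicates 1 and 2.

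The Mir128 genes carried most of the members' counted reads. Mir128-1 had 1779 counts in replicate 1 and 2557 in replicate 2, or 1193 CPM (interval 1138 to 1250) and 1261 CPM (interval 1212 to 1310). It ranked 60 and 59 among all 2202 genes. Mir128-2 had 394 and 464 counts, or 264 CPM (interval 239 to 292) and 229 CPM (interval 208 to 251), with ranks 110 and 122. Mir128-1 was thus higher in replicate 2 and Mir128-2 higher in replicate 1, each by a small margin. Together they held 0.146% and 0.149% of gene counts, or 0.147 ± 0.00229% (SD, n = 2).

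Mir128-1 stood between Mir433, with 1286 ± 3.42 CPM, and Mir351, with 1117 ± 321 CPM (SD, n = 2 for both). The next genes out were Mir652 above, with 1310 ± 23.9 CPM, and Mir676 below, with 1046 ± 240 CPM. The values of Mir128-1 lay below those of Mir433 and Mir652 in both libraries and overlapped those of Mir351 and Mir676. In replicate 2, however, the counting interval of Mir128-1 (1212 to 1310 CPM) contained Mir433 at 1288 and Mir652 at 1293 CPM. The order is that of reads placed at 1 locus only.

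The other 8 members were lower than Mir128-2 in both libraries. Mir138-1 led them by mean CPM and in replicate 1, while Mir137 was above it in replicate 2. Mir138-1 had 89 counts in replicate 1 and 112 in replicate 2, or 59.7 CPM (interval 47.9 to 73.4) and 55.2 CPM (interval 45.5 to 66.4). Mir138-2 had 40 and 50 counts, or 26.8 CPM (interval 19.2 to 36.5) and 24.7 CPM (interval 18.3 to 32.5). Both Mir138 genes were thus close between the libraries, within their counting intervals. Mir138-1 ranked 187 and 189 among all genes.

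Mir137 had 33 counts in replicate 1 and 130 in replicate 2. These are 22.1 CPM (interval 15.2 to 31.1) and 64.1 CPM (interval 53.5 to 76.1), and the intervals do not overlap. Mir137 ranked 223 in replicate 1 and 180 in replicate 2, so it stood below Mir138-2 in the first and above Mir138-1 in the second.

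Mir7-1 had 26 counts in replicate 1 and 50 in replicate 2, or 17.4 CPM (interval 11.4 to 25.5) and 24.7 CPM (interval 18.3 to 32.5). Mir7b had 6 counts in each library, or 4.02 CPM (interval 1.48 to 8.76) and 2.96 CPM (interval 1.09 to 6.44). Mir7-2, the second source of miR-7a-5p, had no count in either library. Reads of miR-7a-5p match Mir7-1 and Mir7-2 alike, whereas miR-7b-5p is found without mismatch in Mir7b and in no other annotated miRNA gene.

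The remaining members were at or near the floor. Mir129-2 had 3 counts in each library, and Mir129-1 had 1 and 2 counts. Mir153 had 0 counts in replicate 1 and 2 in replicate 2, so its detection in this muscle rests on 2 reads, although both its arms are found at 1 annotated locus. Of the 8 members outside the Mir128 genes, 7 had at least 1 count in both libraries and 4 had at least 10 in both (Mir137, Mir138-1, Mir138-2 and Mir7-1). Over all 2202 genes, 402 had at least 1 count in both libraries and 267 at least 10.

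**Figure D2:**
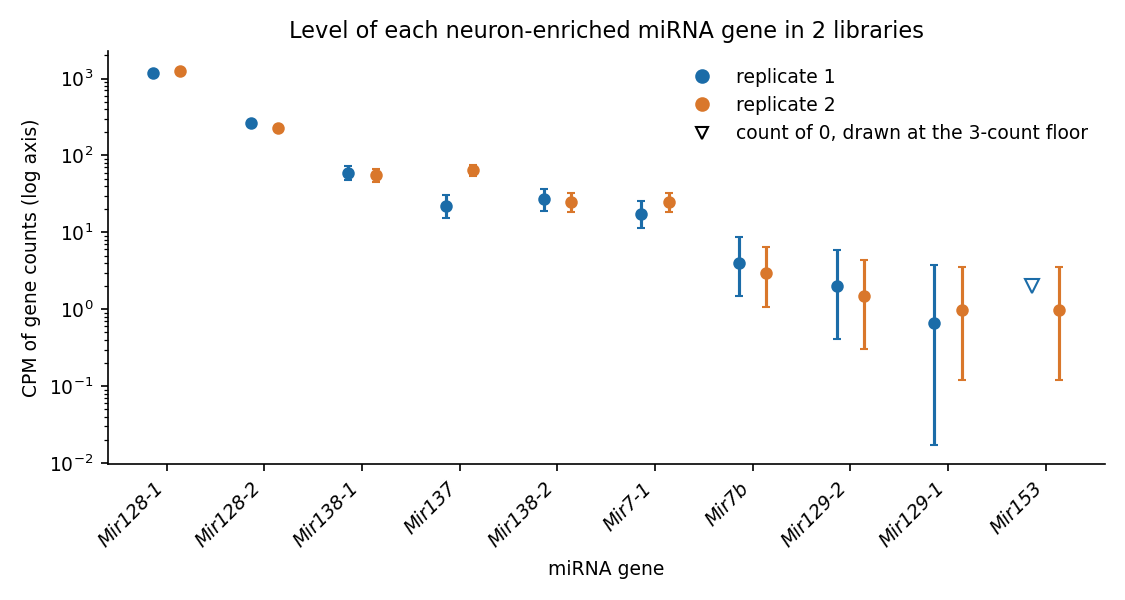
Level of each member in CPM of gene counts (log axis) in replicate 1 (blue) and replicate 2 (orange), ordered by mean level, with exact 95% binomial intervals. The open triangle marks the count of 0 of Mir153, drawn at the 3-count floor of 2.01 CPM. Mir137 has intervals that do not overlap, 15.2 to 31.1 against 53.5 to 76.1 CPM.

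In order of mean CPM the members ran Mir128-1, Mir128-2, Mir138-1, Mir137, Mir138-2, Mir7-1, Mir7b, Mir129-2, Mir129-1 and Mir153. It is the order of reads placed at 1 locus, without reads of arms shared between genes. The values of the 2 libraries did not overlap between Mir128-1 and Mir128-2, between Mir128-2 and Mir138-1, or between Mir7-1 and Mir7b. They overlapped between Mir138-1 and Mir137, between Mir137 and Mir138-2 and between Mir138-2 and Mir7-1, so the order of these 4 genes is not set beyond the spread. Below Mir7b the counts are 3 or fewer, and no order is read from them. Around Mir138-1, the highest of the 8 by mean CPM, Mir410 and Mir370 stood directly above at 57.7 ± 7.64 and 57.6 ± 9.61 CPM. Mir144 and Mir1983 stood directly below at 52.8 ± 18.7 and 48.9 ± 0.0995 CPM (SD, n = 2 for each). The values of Mir138-1 overlapped those of Mir410, Mir370 and Mir144 and lay above those of Mir1983. The counting intervals of Mir138-1, 47.9 to 73.4 and 45.5 to 66.4 CPM, contained Mir1983 at 48.9 and 48.8 CPM, so that order is not set.

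Counts within each related pair were split unequally where there were enough reads. Mir128-1 held 81.9% of the counts of the Mir128 pair in replicate 1 (interval 80.2 to 83.5) and 84.6% in replicate 2 (interval 83.3 to 85.9). Mir138-1 held 69.0% of the Mir138 pair in replicate 1 (interval 60.3 to 76.8) and 69.1% in replicate 2 (interval 61.4 to 76.1). Both pairs thus leaned to the first gene in both libraries, and the Mir138 split was nearly the same in both.

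Mir7-1 held 81.3% of the counts of Mir7-1 and Mir7b in replicate 1 (interval 63.6 to 92.8) and 89.3% in replicate 2 (interval 78.1 to 96.0). For the Mir129 genes the pair sums of 4 and 5 counts give intervals from 0.631 to 80.6% and from 5.27 to 85.3%, so no split was detectable at this depth. As log2 ratios of the first gene over the second, the splits were 2.32 ± 0.20 for Mir128, 1.16 ± 0.0069 for Mir138 and 2.59 ± 0.67 for Mir7-1 over Mir7b (SD, n = 2). An SD of 2 values can fall below counting error, as for Mir138, where the intervals were 60.3 to 76.8% and 61.4 to 76.1%. Reads within the shared arms miR-128-3p, miR-138-5p, miR-129-5p and miR-7a-5p are outside these splits. Mir7-1 is thus counted without reads within miR-7a-5p, while miR-7b-5p is found at Mir7b only among annotated miRNA genes. The splits cover only reads placed at 1 gene, and unequal output of the genes cannot be told apart from unequal reach of the counting.

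**Figure D3:**
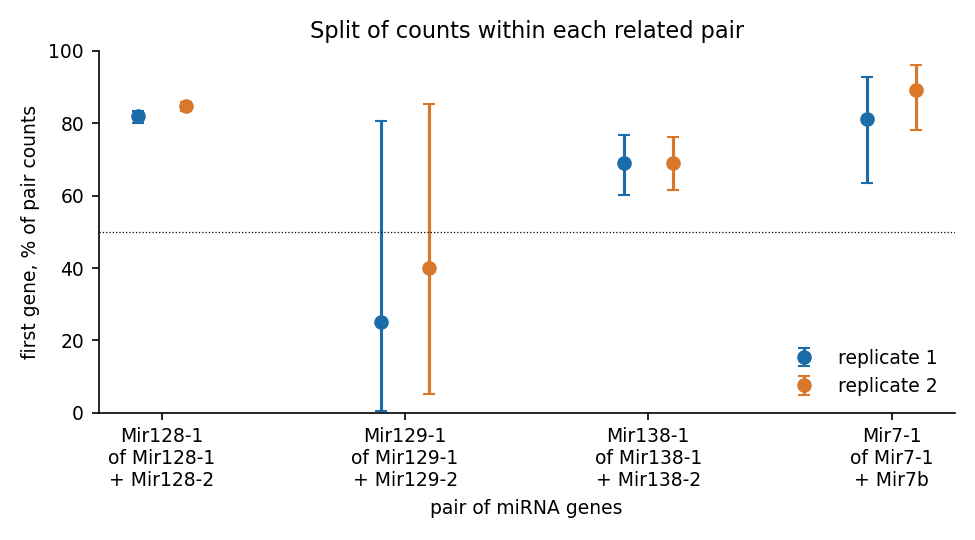
Share of the pair's counts held by the first gene (percent) for 4 related pairs in replicate 1 (blue) and replicate 2 (orange), with exact 95% binomial intervals; the dotted line marks equal counts. Mir138-1 holds 69.0% and 69.1% of its pair, and the Mir129 intervals span most of the axis. Reads within arms shared with another gene are not counted, which affects Mir7-1 but not Mir7b.

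Between the libraries, Mir137 alone among the members passed the test. Its log2 ratio of replicate 2 over replicate 1 was 1.54 (exact 95% interval 0.98 to 2.14), or 2.92-fold, with an adjusted p of 1.30e-08 (exact binomial test, two-sided, Benjamini-Hochberg adjusted over 313 genes with at least 10 counts in sum). It ranked 8 of 313 in log2 ratio. The test sets 1 library against the other and knows no error but that of counting. Over all tested genes it called 19.8% higher in replicate 2 and 18.5% lower, 38.3% in either direction, and 1 of 7 tested members is no more than that background. With the spread between the libraries added, Mir137 did not pass (adjusted p = 0.107, unadjusted p = 9.06e-04, edgeR exact negative binomial test), a test under which 0 of 313 genes passed and 15 reached an unadjusted p below 0.05. The dispersion behind that test comes from these libraries themselves and so contains their differences, and missing it does not show equal levels.

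The other tested members had smaller or less certain ratios. Mir128-1 stood at 0.09 (interval 0.00 to 0.18, adjusted p = 0.0989) and Mir128-2 at -0.20 (interval -0.39 to 0.00, adjusted p = 0.109) by the exact binomial test. Mir128-1 passed in the counts taken without regard to strand (adjusted p = 0.0373, exact binomial test), at a log2 ratio of 0.11. Its own counts there were the same, 1779 and 2557, so only the library scaling and the set of tested genes differed. Mir7-1 had a ratio of 0.51 (interval -0.20 to 1.25), which leaves room for a difference of more than 2-fold. Mir138-1 had -0.10 (interval -0.52 to 0.32), Mir138-2 -0.11 (interval -0.74 to 0.53) and Mir7b -0.43 (interval -2.34 to 1.47).

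None of the 7 was called lower in replicate 2 by the exact binomial test. At an unadjusted exact binomial p below 0.05, Mir128-2 was lower (p = 0.0490) and Mir128-1, beside Mir137, was higher (p = 0.0442), where 20.8% of all tested genes were lower and 24.3% higher at that threshold. The median log2 ratio of the 7 was -0.10, with 3 above 0 and 4 below, beside a median of 0.05 over all 313 genes, with 167 above and 146 below. Mir129-1, Mir129-2 and Mir153 had too few counts to be tested.

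**Figure D4:**
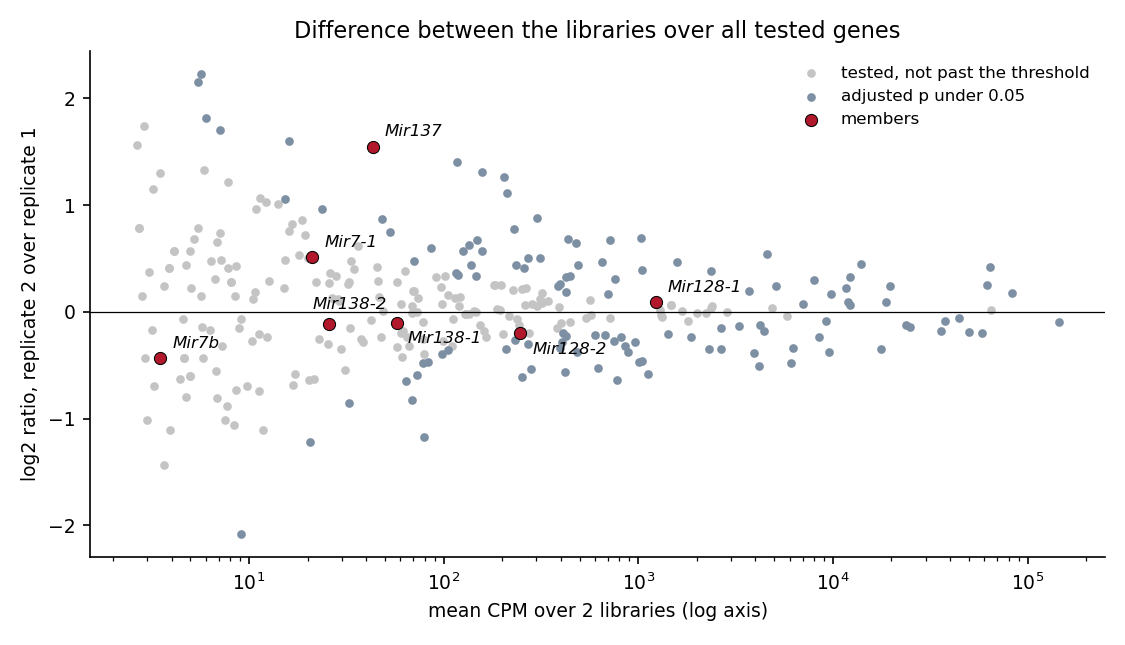
Log2 ratio of replicate 2 over replicate 1 against mean CPM (log axis) for the 313 tested genes. Grey-blue points have an adjusted p under 0.05 in the exact binomial test, light grey points do not, and red points are the 7 tested members. Mir137 stands at 1.54, while the other 6 lie between -0.43 and 0.51.

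Mir137 also held the difference in the summed level of the 8 members outside the Mir128 genes. They had 198 counts in replicate 1 and 355 in replicate 2, or 0.0133% (interval 0.0115 to 0.0153) and 0.0175% of gene counts (interval 0.0157 to 0.0194). Without Mir137, a sum taken after its values were seen, the other 7 had 165 and 225 counts, or 0.0111% in both libraries (intervals 0.00944 to 0.0129 and 0.00969 to 0.0126). That equal sum holds shifts in both directions and does not mean that each gene was unchanged. Mir7-1 was higher in replicate 2 (17.4 against 24.7 CPM), while Mir138-1 (59.7 against 55.2 CPM), Mir138-2 and Mir7b were lower. Mir137 made up 16.7% of the 8-member sum in replicate 1 and 36.6% in replicate 2. Mir138-1 made up 44.9% and 31.5%. The Mir128 genes together had 11.0 times the summed level of these 8 in replicate 1 and 8.51 times in replicate 2. This ratio covers only reads placed at 1 locus, and 7 of the 10 members have an arm that such counts leave out.

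**Figure D5:**
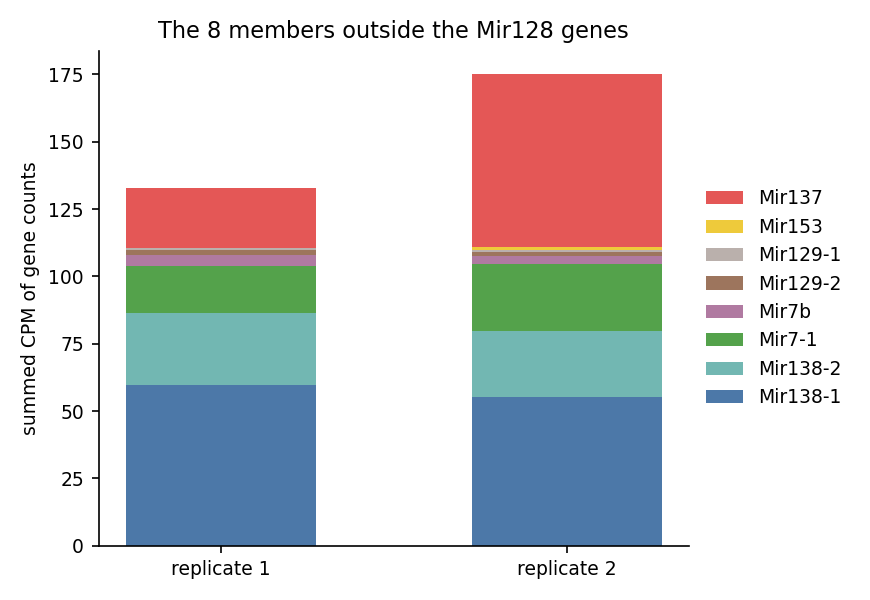
Summed CPM of the 8 members outside the Mir128 genes in each library, stacked by gene. The stacks reach 133 and 175 CPM, and the genes below Mir137 (red) sum to 111 CPM in both, with shifts in both directions among them.

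Other neuron-enriched miRNAs were mostly at the floor. Of 13 listed genes, 8 had a count in both libraries, 5 had none in either and 1, Mir132, had at least 10 in both. All 3 Mir124a genes, the best-known neuronal miRNA genes, and Mir9-1 and Mir9-2 had no count, and Mir9-3 had 1 count in each library. Mir132, a miRNA induced by activity in neurons, had 279 and 383 counts, or 188 ± 1.23 CPM (SD, n = 2). Its counting intervals, 166 to 210 and 170 to 209 CPM, are wider than that SD. It held most of the list's 296 counts in replicate 1 and 420 in replicate 2.

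Mir383, in an intron of the sarcoglycan gene Sgcz, had 7 and 22 counts, with a log2 ratio of 1.22 and an adjusted p of 0.123 (exact binomial test). Mir218-1 and Mir218-2, of the motor neuron miRNA miR-218, had 1 and 4 counts in replicate 1 and 4 each in replicate 2. They share a run of 22 bases, and reads that lie within it are left out of these counts. Of the 2 tested genes of the list, Mir132 and Mir383, neither passed in either direction by the exact binomial test, and neither had an unadjusted p below 0.05 (p = 0.844 and p = 0.0588). The list held 0.0203 ± 0.000607% of gene counts (SD, n = 2), beside 0.0154 ± 0.00299% for the 8 members. The longest run shared with another annotated miRNA gene was 32 bases for each Mir124a gene and 26 to 33 bases for the Mir9 genes, so reads of their shared arms are not in these counts. For Mir132, Mir212 and Mir383 it was 11 to 13 bases, and Mir212, in an intron of the same host as Mir132, 1700016P03Rik, had only 1 and 2 counts.

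By the exact binomial test, which called 19.8% of all tested genes higher, 2 of the 3 myosin-gene miRNAs of slow and cardiac muscle were higher in replicate 2, and the summed level of the list was 429 CPM in replicate 1, against 763 in replicate 2. Mir208b had 136 and 454 counts (log2 ratio 1.31, adjusted p = 4.33e-22) and Mir499 499 and 1084 counts (0.69, adjusted p = 1.96e-18, exact binomial test for both), while Mir208a had 5 and 9 counts and did not pass. Both red cell genes were higher as well, and they summed to 174 and 355 CPM. Mir451a had 201 and 587 counts, with a log2 ratio of 1.11, and Mir144 had 59 and 134 counts, with a log2 ratio of 0.75. None of these 4 calls held in the edgeR exact negative binomial test (adjusted p = 0.107 for Mir208b, 0.986 for Mir499, 0.238 for Mir451a and 0.986 for Mir144). The leukocyte and striated muscle lists summed lower in replicate 2, at 2665 and 2294 CPM and at 54668 and 47658 CPM. The endothelial gene Mir126a was higher there, at 78275 and 87525 CPM. The part of fibre type or blood in the Mir137 difference was not tested.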

How the data were processed

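MicroRNA libraries from gastrocnemius of 1 group with 2 replicates were analysed. The authors deposited raw read counts per miRNA gene, in 3 columns without a header and with 4 summary rows, against mm10 and GENCODE M21 per the deposited file descriptions. Judged by their values, these ignore strand, take the gene's strand or take the opposite strand, and the column for the gene's strand was used. The sources used here name no aligner or trimming step. All 2202 identifiers were matched to GENCODE M21, and mature and hairpin sequences came from RefSeq (GRCm38.p6); all 10 members had at least 1 mature arm there. Sharing was searched in the 2202 annotated hairpins, on both strands, without genes that overlap the hairpin; a whole genome and reads of CAST alleles were not used here.

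Per gene, an exact two-sided binomial test on counts given their sum used TMM effective library sizes (edgeR 4.0.16, R 4.3.3), over 313 genes with at least 10 counts in sum, with Benjamini-Hochberg adjustment and a threshold of 0.05. With 1 group no quasi-likelihood contrast exists. The steps were run on simulated data drawn with counting error only, without the spread seen between these libraries. Alternatives were size factors from DESeq2 1.42.0, total counts, other count filters, the column without strand, all reads as denominator and the edgeR exact negative binomial test with a common dispersion (biological coefficient of variation 18.0%). Intervals and exact binomial p-values cover the counting error of reads only. PCR copies are not independent molecules, so for molecules the intervals can be too narrow and the p-values too small. The members and lists were chosen with earlier results of these data known. The text names all members, Mir7-2, up to 4 genes of a list with the highest mean CPM, and the 2 genes above and 2 below Mir128-1 and Mir138-1 in level. Other list genes are named because they are at 0 or as defining genes, chosen after their values were seen.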

Additional observations from a re-analysis of the deposited data

How the results depend on the processing

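The call for Mir137 held with DESeq2 size factors, total counts, no low-count filter, at least 10 counts in each library and counts without regard to strand, with log2 ratios from 1.53 to 1.56. Under the edgeR exact negative binomial test it was lost (adjusted p = 0.107); no member was then called higher (0), and over all genes 0 were called higher and 0 lower, against 62 and 58. The members called higher were 2 in the counts without regard to strand, where Mir128-1 joined with its own counts unchanged. No tested member changed the sign of its ratio under these settings. The share of the Mir128 genes was 0.197% in the counts without regard to strand and 0.0298% of all reads in the file, against 0.147%. For the other 8 members it was 0.0204% and 0.00312%, against 0.0154%, and 0.0111% without Mir137 in the sum. These shares moved because the denominator is smaller, larger or, for Mir137, the sum is smaller. Leaving out 1 library gave shares from 0.146 to 0.149% for the Mir128 genes and from 0.0133 to 0.0175% for the other 8. It gave log2 pair ratios from 2.17 to 2.46 (Mir128), -1.58 to -0.58 (Mir129), 1.15 to 1.16 (Mir138) and 2.12 to 3.06 (Mir7-1 over Mir7b). Without strand Mir129-2 had 0 counts, so its pair had no ratio. No paired analysis was possible because there is 1 group. Depth limits Mir129-1, Mir129-2, Mir153 and Mir7b, with 6 counts or fewer in each library.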

Other observations

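Of the glia and Schwann cell genes, Mir338, in an intron of Aatk, had 540 counts in replicate 1 and 872 in replicate 2, or 396 ± 48.0 CPM (SD, n = 2), above Mir128-2. Its log2 ratio was 0.26 (adjusted p = 0.00369, exact binomial test), where that test called 19.8% of all 313 tested genes higher. Mir338 did not pass in the edgeR exact negative binomial test (unadjusted p = 0.498). Mir219a-1 had 0 and 1 counts. Mir219a-2 had 8 and 4, with a log2 ratio of -1.43 (adjusted p = 0.254, exact binomial test). Among the neuroendocrine and pancreatic genes, Mir375 had 8 and 7 counts, Mir217 8 in each library and Mir216a 1 and 0.

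The exact binomial test called 19.8% of all 313 tested genes higher in replicate 2 and 18.5% lower, and the counts below, from a few genes each, are read against that. Striated muscle held 5.12 ± 0.496% of gene counts, of which Mir206 alone made up 97.6% in replicate 1 and 97.7% in replicate 2, with 0 of 6 tested genes higher in replicate 2 and 3 lower. Reads with more than 1 genomic match are not in these shares, and arms shared among the muscle genes were not searched. The endothelial gene Mir126a held 8.29 ± 0.654% and was higher. The leukocyte list held 0.248 ± 0.0262%, with 2 of 4 higher and 2 lower. The red cell list held 0.0265 ± 0.0128%, with both genes higher, and the myosin-gene list 0.0596 ± 0.0236%, with 2 of 3 higher (SD, n = 2). None of these calls held in the edgeR exact negative binomial test, under which 0 of 313 genes passed and 15 reached an unadjusted p below 0.05.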
